A study of Mus musculus with 11 samples.

Results

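The carotid body was compared with the adrenal medulla, a pair of small organs built around catecholamine-secreting cells of neural crest origin. The comparison used the arrays whose sample titles named either organ, which gave 3 carotid body and 4 adrenal medulla arrays, 7 of the 11 in the series. The other 4 arrays held the superior cervical ganglion, a sympathetic ganglion beside the carotid body, and entered the estimate of the spread but not the differences. Every array was hybridised with RNA from a pool of organs of wild-type C57B6 mice, male and female, aged 2 months. A carotid body pool combined 10 mice and an adrenal medulla pool combined 3 mice, and all 7 pools shared strain, age and amplification from 50 ng of total RNA. The labels call the pools biological replicates without saying how the mice were divided among them. The p-values below therefore set each difference against the spread between pools, taken over all 11 arrays, and not against the spread between mice. No cells were sorted, so fewer cells of a type and less RNA per cell of that type cannot be told apart in any value given here.

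The carotid body is the oxygen and acid sensor at the fork of the carotid artery. Its glomus cells lie in clusters wrapped by glia-like sustentacular cells, among dense capillaries and connective tissue, and signal to sensory nerve endings. The chromaffin cells of the adrenal medulla release adrenaline into the blood and lie inside a steroid-making cortex whose cells are difficult to dissect away completely. Both organs descend from neural crest, but from different levels of the body axis, and genes of position, of surrounding tissue and of hormone metabolism can therefore differ between them as well as genes of the secretory cells.

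The authors' values were log2 levels, and each difference is carotid body minus adrenal medulla, so 1 unit is a 2-fold difference. Rows paired with exactly 1 gene symbol were kept, and a gene with several rows was represented by its brightest, which left 30145 genes, 18998 of them protein-coding. A gene was called when its adjusted p (limma, Benjamini-Hochberg over all 30145 genes) was under 0.05 and its difference at least 1. Levels under about 5.4 were treated as background, a bound set from 347 vomeronasal receptor and keratin-associated genes, and where any pool of the dimmer organ lay under it a fold is given as "at least" in place of the difference. The values reach 19.93, above the 16 that a scanner's range allows on a log2 scale, so a rescaling that no source names is possible, and the base is taken as 2 because RMA, the authors' summary method, uses it. A level compares arrays for 1 gene and does not rank genes against each other, because the values are not per length and probes differ in response.

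Of the 30145 genes, 1828 were called higher in the carotid body, 6.06% of those tested, and 1492 were called lower, 4.95%. Among protein-coding genes the balance turned, with 1008 called higher (5.31%) and 1218 called lower (6.41%), beside a median difference of 0.02. Among the 12404 protein-coding genes above background in either organ, 8.06% were called higher and 9.8% lower. Centring every array on its median moved the median difference to -0.10 and turned the split over all genes to 1577 higher and 1966 lower, so a surplus in either direction over all genes has no fixed sign. The 98 gene families examined held 4611 measured genes, of which 414 were called higher and 338 lower. Members of a family are given as counts in each direction, to be read against the 5.31% and 6.41% of all protein-coding genes. Where most members are above background, the 8.06% and 9.8% are the closer shares.

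The carotid body pools differed from one another more than the adrenal medulla pools did, with 90 protein-coding genes whose SD over the 3 pools exceeded 1, against 8 over the 4 adrenal pools. The fit took 1 spread per gene for all tissues, which can be too small for genes that vary among the carotid body pools. Carotid body pool 3 stood apart in genes of the thyroid, the gland that lies near the carotid fork. Thyroglobulin (Tg), the thyroid hormone precursor, read 5.04, 5.13 and 18.56 in carotid body pools 1 to 3 and 4.77, 4.95, 4.90 and 4.97 in the adrenal pools. The iodotyrosine-recycling enzyme Iyd read 5.17, 5.32 and 7.47, and the thyroid anion exchanger Slc26a7 read 4.44, 4.44 and 7.93. Pool 3 was thus the high one for all 3 genes, none of which was called over the 3 pools. Iyd was called higher without pool 1, and all 3 genes were called higher with array weights. Of the 11 thyroid and parathyroid markers measured, 9 were above background in pool 3, against 4 and 5 in the other pools and 3 in each adrenal pool.

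Carotid body pool 2 stood apart in skeletal muscle genes. Fast myosin heavy chain Myh4 read 4.81, 7.89 and 4.91 in the 3 pools, and the fast troponin gene Tnnt3 was likewise highest in pool 2. The adrenal pools lay between 4.58 and 4.81 for Myh4. Neither was called over the 3 pools, and without pool 1 Tnnt3 was called higher. Carotid body pool 1 was the richest and pool 2 the poorest in genes of sympathetic neurons. The noradrenaline transporter Slc6a2, for example, read 16.85, 13.21 and 14.77 against a mean of 11.58 in the adrenal medulla, and its difference of 3.36 became 2.40 without pool 1 and 4.23 without pool 2. Pool 1 was the highest of the 3 in 71 of the 90 variable genes and pool 2 the lowest in 68. The difference of each gene named below was also computed with each pool left out, and that pool is named where the call changed or the value moved by over 1.5-fold.

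**Figure D1:**
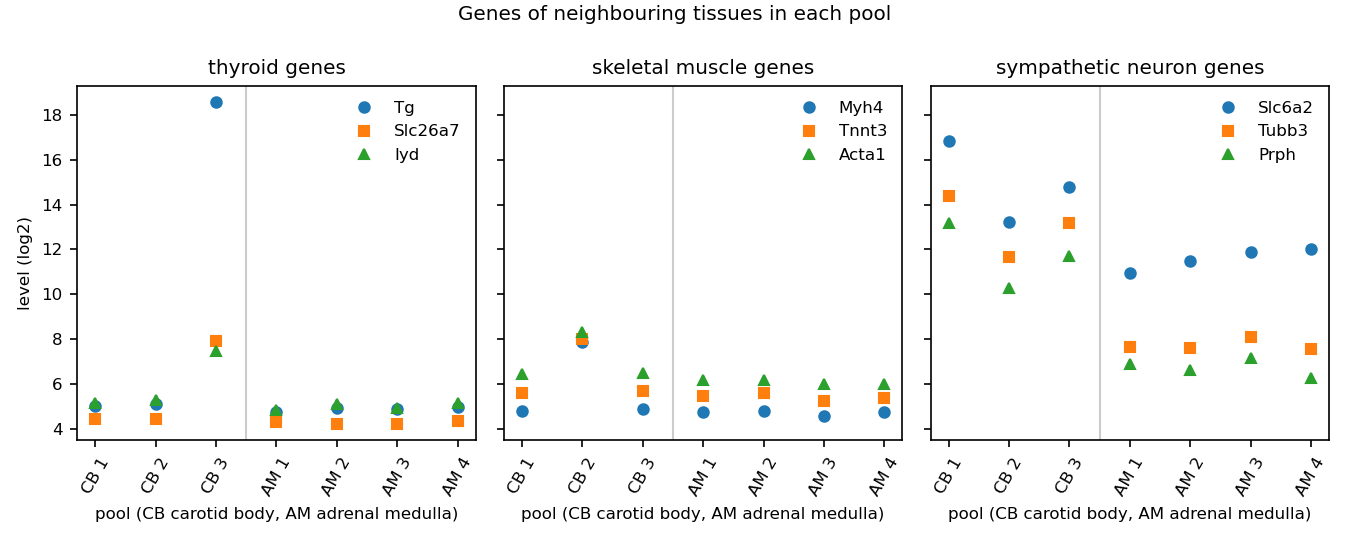
Levels (log2, vertical axis) of 3 thyroid, 3 skeletal muscle and 3 sympathetic neuron genes in each of the 7 pools (horizontal axis), with 1 point per pool and gene. Carotid body pool 3 stands above all other pools for the thyroid genes and pool 2 for the muscle genes, while Slc6a2, Tubb3 and Prph are highest in carotid body pool 1 and lowest of the 3 in pool 2.

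Large differences, though not the largest, included receptors and transporters. The cytochrome P450 genes ran from -14.62 to 8.34, and the genes at both ends are not named here. Slc9a2, a sodium-proton exchanger, read 11.34, 10.99 and 10.70 in the carotid body and 4.62, 4.72, 4.42 and 4.57 in the adrenal medulla, at least 50.5-fold higher (adjusted p 8.66e-10). The relaxin receptor Rxfp1 read 11.33, 11.10 and 11.11 against 4.74, 4.81, 4.86 and 4.70, at least 57-fold higher (adjusted p 1.51e-10). In the opposite direction the neurokinin receptor Tacr2 read 5.32, 5.29 and 5.45 against 12.35, 12.92, 11.49 and 11.92, at least 109-fold lower (adjusted p 2.4e-08). Neither gene of the first pair had an adrenal pool above background, and Tacr2 had 1 carotid body pool just above it; no groups overlapped. In the ganglion Rxfp1 had a mean of 10.68, close to its carotid body level, whereas Slc9a2 had a mean of 4.85.

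Other genes of this size were the matricellular protein Ccn3 (at least 41-fold), the mast cell protease Mcpt4 (at least 58.5-fold) and gamma-synuclein Sncg (+5.46) on the higher side. On the lower side stood the lipid hydrolase Abhd2 (-6.97), the secreted protease-like protein Prss35 (-6.70), the thrombin receptor F2r (-5.48), the sodium-calcium-potassium exchanger Slc24a2 (-5.45) and the homeobox gene Prox1 (-5.10). Mcpt4 read 10.33, 11.52 and 11.81 in the carotid body pools. The mast cell list had 6 of 15 markers higher and 2 lower, with summed levels (log2 of the summed linear values) of 12.78 to 13.58 in the carotid body and 14.44 to 15.16 in the adrenal medulla, so the sum was higher in the adrenal medulla although more members were higher in the carotid body; the 2 lower members were Slc6a4 and Gata2. The adrenal cortex list had 11 of 17 markers lower, with 7 of the 17 above background in the carotid body and summed levels of 10.40 to 10.76 there and 21.24 to 21.43 in the adrenal medulla, and the part of cortical RNA in the genes that were lower was not tested.

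**Figure D2:**
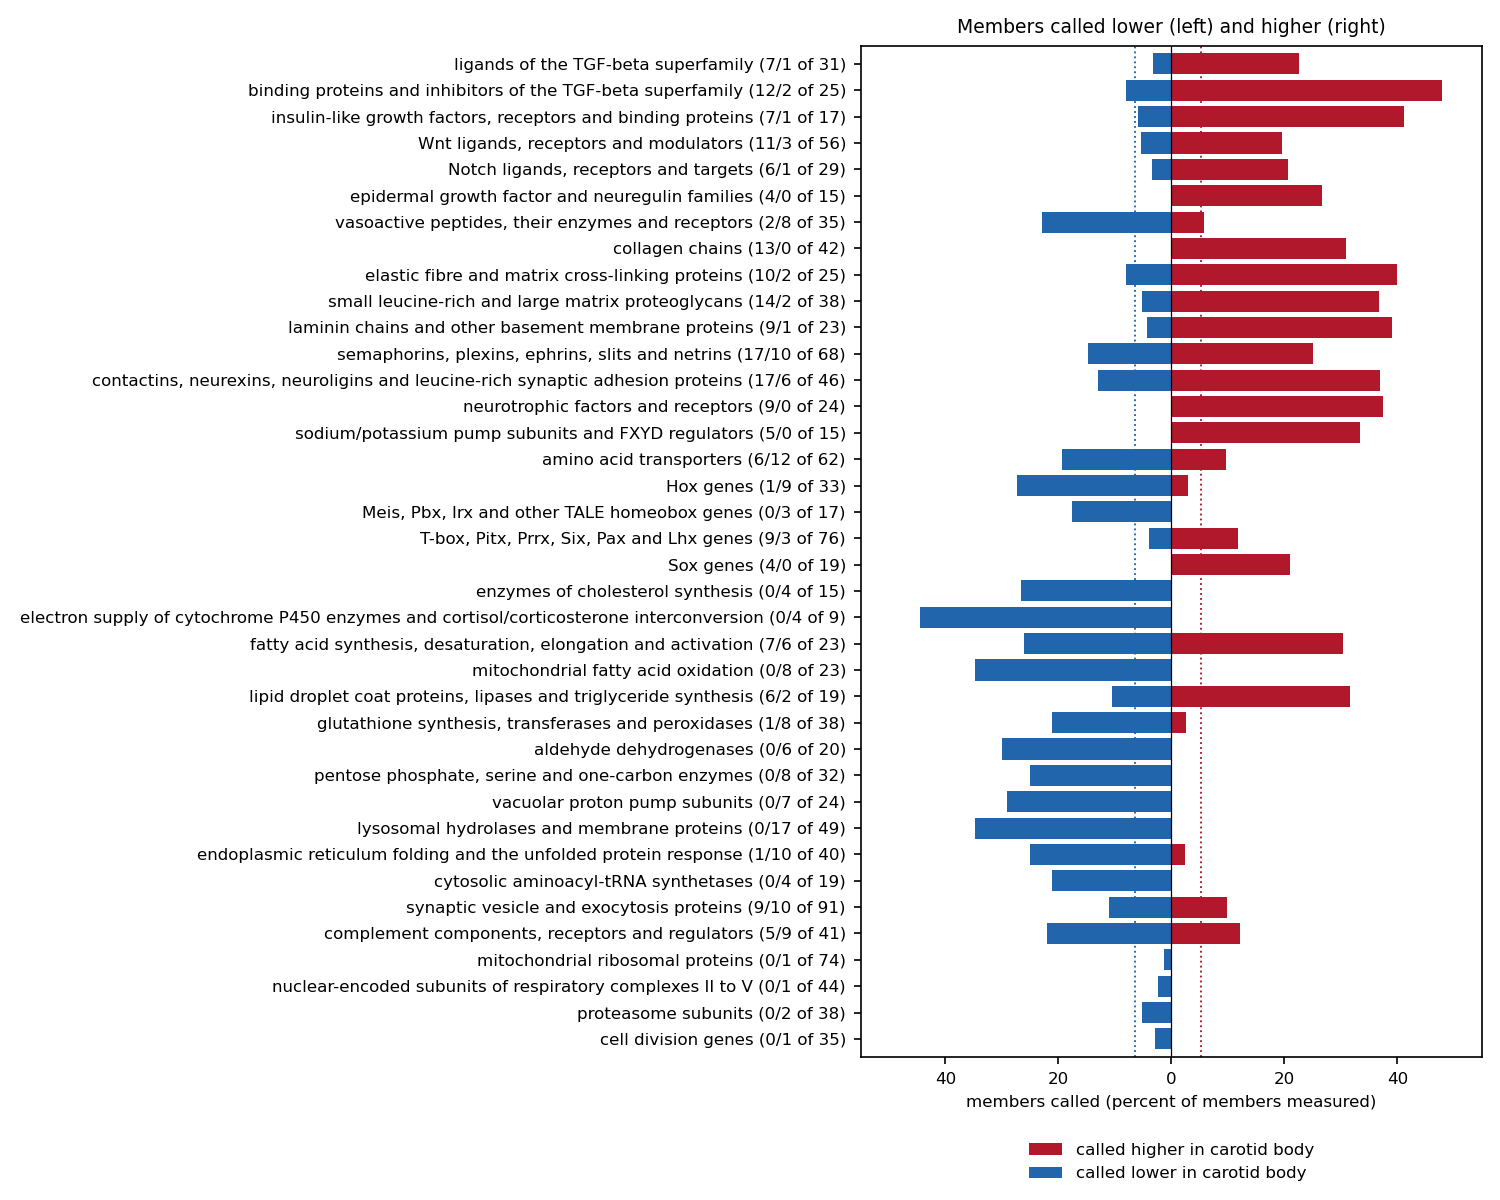
Share of the measured members of 38 gene families that were called higher (red, to the right) or lower (blue, to the left) in the carotid body than in the adrenal medulla, in percent, with the counts in each label and dotted lines at the shares over all protein-coding genes. Matrix, growth factor and neurotrophic families extend to the right, sterol, lysosome, aldehyde dehydrogenase and Hox families to the left, and mitochondrial ribosome, proteasome and cell division families stay inside the dotted lines.

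Hox genes, transcription factors that give cells their position along the body axis, were mostly lower in the carotid body where they differed. Of 33 Hox genes measured, 16 were above background in either organ, 9 were lower, all with numbers from 5 to 9, and 1 was higher. Hoxb9 read 4.18, 4.62 and 4.69 in the carotid body pools and 8.40, 7.97, 7.58 and 7.64 in the adrenal pools, at least 5.73-fold lower (adjusted p 4.44e-07). Hoxb6 read 4.53, 5.30 and 5.18 against 8.54, 7.87, 8.08 and 8.44, at least 7.23-fold lower (adjusted p 1.75e-06). No carotid body pool rose above background for either gene, and every adrenal pool did.

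Hoxb5 (at least 4.93-fold), Hoxb8 (at least 5.01-fold), Hoxb7 (at least 2.4-fold), Hoxc8 (at least 3.32-fold), Hoxc6 (difference -1.94), Hoxa5 (at least 1.87-fold) and Hoxd8 (difference -1.14) were the other Hox genes called lower. The single gene called higher was Hoxa2, which acts in the hindbrain and pharyngeal arches. It read 7.15, 8.09 and 7.58 in the carotid body against 5.48, 5.77, 5.77 and 5.49, a difference of 1.98 (adjusted p 4.1e-05). Hoxb2 (6.08 ± 0.23 (SD, n = 3) against 5.93 ± 0.03 (SD, n = 4)) and Hoxb3 (6.02 ± 0.19 (SD, n = 3) against 6.34 ± 0.16 (SD, n = 4)), which are expressed farther towards the head, were not called. The superior cervical ganglion, which lies beside the carotid body, had means of 4.41 for Hoxb9 and 4.92 for Hoxb6, near the carotid body levels. This did not hold for every Hox gene called lower. For Hoxc6 the ganglion mean of 7.32 lay between 6.61 in the carotid body and 8.55 in the adrenal medulla.

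TALE homeobox genes, some of which encode proteins that bind DNA together with Hox proteins, were lower in 3 of 17 cases and higher in none. Meis2 read 7.75, 7.79 and 7.79 in the carotid body and 10.03, 9.96, 9.77 and 10.47 in the adrenal medulla, 4.85-fold lower, and Pbx3 differed by -1.42 and Mkx was at least 2.25-fold lower. A list of T-box, Pitx, Prrx, Dlx and related developmental genes had 9 of 76 members higher and 3 lower. Dlx5, which patterns the lower part of the first arches, read 9.55, 10.52 and 10.56 in the carotid body against 5.45, 5.39, 5.34 and 5.65 in the adrenal medulla, at least 26.9-fold higher (adjusted p 6.16e-08). Its neighbour Dlx6 was at least 4.41-fold higher, Dlx2 was higher by 2.64 and the mesenchymal gene Prrx1 by 2.49. Among T-box genes, Tbx3 was lower by 4.03 and Tbx20 by 2.00, and Tbx18 was at least 1.63-fold higher.

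**Figure D3:**
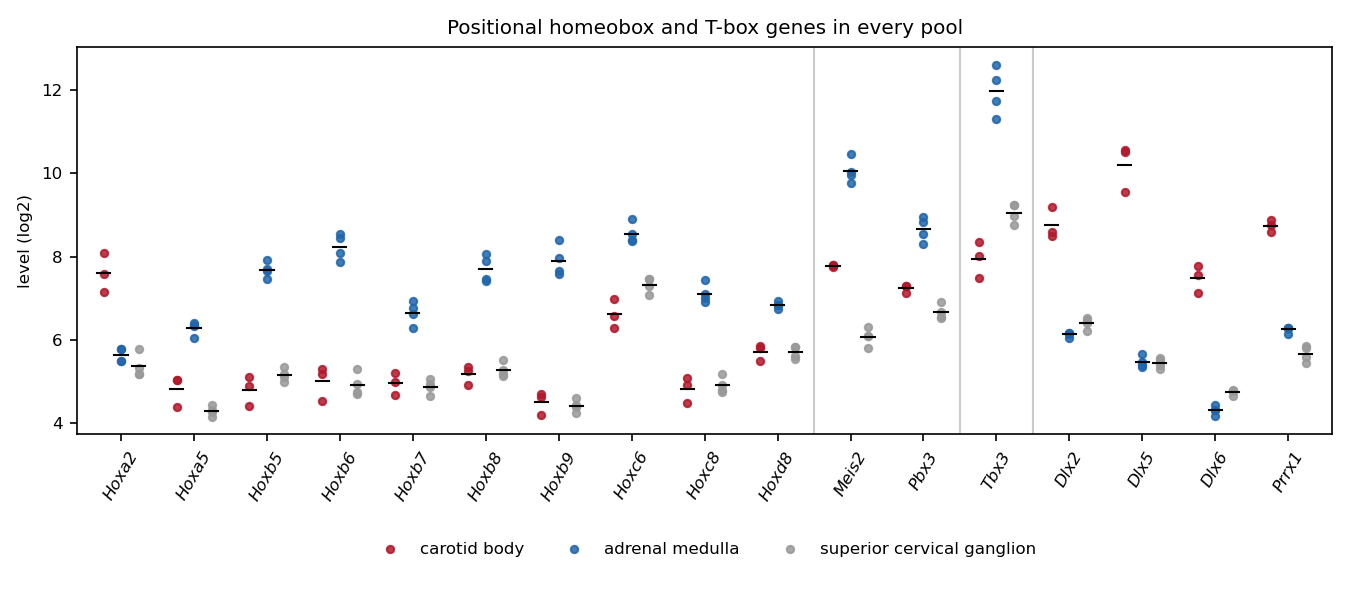
Level (log2, vertical axis) of 17 homeobox and T-box genes in every pool, with 1 point per pool, coloured by organ, and a black bar at each organ's mean. Hoxb5 to Hoxb9 lie near background in all carotid body and ganglion pools and above 6 in the adrenal pools, while Dlx2, Dlx5, Dlx6 and Prrx1 are higher in every carotid body pool than in all other pools.

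MicroRNA genes inside the Hox clusters were read out by their own probe sets, chosen here after their values were seen. Mature sequences from RefSeq (build GRCm38.p6) are shown because 2 loci make the same microRNA; capitals mark the seed, bases 2 to 8.
miR-196a-5p: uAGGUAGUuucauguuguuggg
miR-10b-5p: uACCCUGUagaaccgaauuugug
Mir196a-1, at chr11:96265187-96265208 on the plus strand within the Hoxb cluster, read 4.70, 4.59 and 4.23 in the carotid body and 5.77, 5.84, 5.87 and 6.32 in the adrenal medulla, at least 1.48-fold lower (adjusted p 7.81e-05). Mir196a-2, in the Hoxc cluster, gives the same mature sequence and was not called, at 6.14 ± 0.27 (SD, n = 3) against 5.92 ± 0.27 (SD, n = 4). Mir10b, at chr2:74726074-74726096 on the plus strand within the Hoxd cluster, read 3.75, 3.29 and 4.04 against 4.48, 4.33, 5.84 and 5.58, and was called lower, a call that ended without carotid body pool 2, with the control features as a covariate and from the 7 arrays alone. Its mean was under background in both organs, with adrenal pools 3 and 4 alone above it, so no size is given. The carotid body values of Mir196a-1 were all under background. These probe sets lie on the precursor, so the values do not measure the mature microRNA. Over all 600 microRNA genes tested, 37 were called higher (6.17%) and 17 lower (2.83%).

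Sterol genes were lower in the carotid body where they moved. Of 15 enzymes of cholesterol synthesis, 4 were lower and none higher. Dhcr7, which catalyses the last step to cholesterol, read 7.07, 6.55 and 6.95 in the carotid body and 10.99, 11.07, 10.62 and 10.91 in the adrenal medulla, 16.5-fold lower (adjusted p 3.99e-08). Lanosterol synthase Lss differed by -2.27 and the isomerase Idi1 by -2.23, and Cyp51 differed by -1.44 but was not called without carotid body pool 2 (-1.15), with the control features as a covariate (-0.91) or from the 7 arrays alone. The early enzyme Hmgcs1 was not called, at 12.84 ± 0.90 (SD, n = 3) against 12.13 ± 1.37 (SD, n = 4), nor was squalene epoxidase Sqle, at 9.80 ± 0.70 (SD, n = 3) against 9.67 ± 0.54 (SD, n = 4). In all 3 carotid body pools Dhcr7, Lss and Idi1 were below every adrenal pool.

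Among 17 genes of cholesterol uptake, storage and export, 5 were lower and none higher, which became 3 without carotid body pool 2. Scarb1, the receptor that takes cholesterol from HDL, read 7.93, 7.66 and 8.03 against 14.64, 14.65, 14.66 and 14.72, 111-fold lower (adjusted p 1.51e-10). The exporters Abca1 (-1.94) and Abcg1 (-1.60) were lower too, while Srebf2, which encodes a regulator of sterol genes, was not called at 10.30 ± 0.54 (SD, n = 3) against 10.26 ± 0.22 (SD, n = 4). Electron supply to cytochrome P450 enzymes, which steroid synthesis needs, had 4 of 9 members lower. Ferredoxin Fdx1 read 6.77, 6.92 and 6.98 in the carotid body and 13.50, 12.71, 12.77 and 13.77 in the adrenal medulla, 78.7-fold lower (adjusted p 1.87e-08), and Cyb5b (-3.06), Pgrmc1 (-2.50) and H6pd (-1.27) followed. Scarb1 and Fdx1 also stand in the adrenal cortex list, whose summed levels are given above; the part of cortical cells in these results was not tested.

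Promoter windows from RefSeq (250 bases before to 50 after the start, GRCm38.p6) were searched on both strands for the site of steroidogenic factor 1, CAAGGTCA, and for the sterol regulatory element, TCACCCCAC. The first occurred in 1.56% of 32851 windows, in 1 of 12 cholesterol synthesis genes with a window and in 0 of 9 adrenal cortex markers. The second occurred in 0.551% of windows, again in 1 of 12 cholesterol synthesis genes and in 0 of 20 fatty acid synthesis genes. The core of the hypoxia response element, ACGTG, occurred in 19.6% of windows, in 6 of 18 genes of the vacuolar proton pump and in 1 of 21 vascular growth genes. The CArG box, a motif of muscle genes, occurred in 1.63% of windows, in 0 of 11 smooth muscle markers and in 8 of 59 genes of actins, myosins and their partners. The 2 stretches are shown because they belong to a gene that was lower and to one that was not called; capitals mark the match.
Dhcr7: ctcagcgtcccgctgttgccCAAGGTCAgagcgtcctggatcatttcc
Hmgcs1: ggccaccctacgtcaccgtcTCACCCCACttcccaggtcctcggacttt
The Dhcr7 stretch lies at chr7:143823095-143823142 on the plus strand, with the match 45 bases before the start, and the Hmgcs1 stretch at chr13:119690194-119690242 on the plus strand, with the match 129 bases before the start. A match of letters is a description and not a binding site.

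Fatty acid genes were called in both directions. Of 23 genes of fatty acid synthesis, desaturation, elongation and activation, 7 were higher and 6 lower. Among the 7 that were higher, fatty acid synthase Fasn read 15.60, 14.63 and 14.21 in the carotid body and 11.13, 11.24, 10.79 and 10.78 in the adrenal medulla, 14.2-fold higher (adjusted p 1.93e-06). Thrsp, a lipogenic regulator, read 11.71, 10.35 and 9.64 against 6.87, 7.15, 7.03 and 7.25, 11.3-fold higher. Acetyl-CoA carboxylase Acaca was higher by 2.21 and stearoyl-CoA desaturase Scd1 by 3.21, or by 4.81 when the probe sets of the gene were averaged. For Fasn and Thrsp carotid body pool 1 was the highest and pool 3 the lowest of the 3, and none overlapped the adrenal pools.

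Among the 6 that were lower, Acsl4, which activates arachidonic acid, read 11.41, 10.32 and 10.37 against 15.13, 16.29, 15.55 and 16.25, 34.5-fold lower (adjusted p 7.43e-07). The desaturases Fads2 and Fads1 differed by -4.57 and -2.96, and ATP citrate lyase Acly, which feeds both sterol and fatty acid synthesis, by -2.35 (-1.71 with the control features as a covariate). Mitochondrial fatty acid oxidation had 8 of 23 members lower and none higher, among them the entry enzyme Cpt1a (-2.35), the medium-chain dehydrogenase Acadm (-1.56) and Hadhb (-1.43); without carotid body pool 1, 1 member was called higher. Acadl was not called at 13.05 ± 0.05 (SD, n = 3) against 13.10 ± 0.13 (SD, n = 4).

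Triglyceride storage was higher in 6 of 19 genes and lower in 2. Dgat2, which adds the third chain to a triglyceride, read 11.43, 12.72 and 11.90 in the carotid body and 8.63, 7.93, 7.54 and 7.86 in the adrenal medulla, 16.3-fold higher (adjusted p 3.14e-06). The droplet proteins Cidec (at least 13.3-fold), Cidea (+2.58) and Plin1 (+2.02) were higher and Fitm2 (-1.46) lower. Plin2, the coat protein of most other cells, was lower by 1.04. That call was lost without carotid body pool 3 (-0.98), without adrenal pools 1 or 4 and after repeated quantile normalization. The list of white and brown fat markers had 11 of 15 members higher, with summed levels of 14.22 to 15.08 in the carotid body and 10.75 to 10.92 in the adrenal medulla, and it holds Plin1, Cidec and Cidea as well. The part of fat cells in the lipid synthesis and storage genes was not tested.

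**Figure D4:**
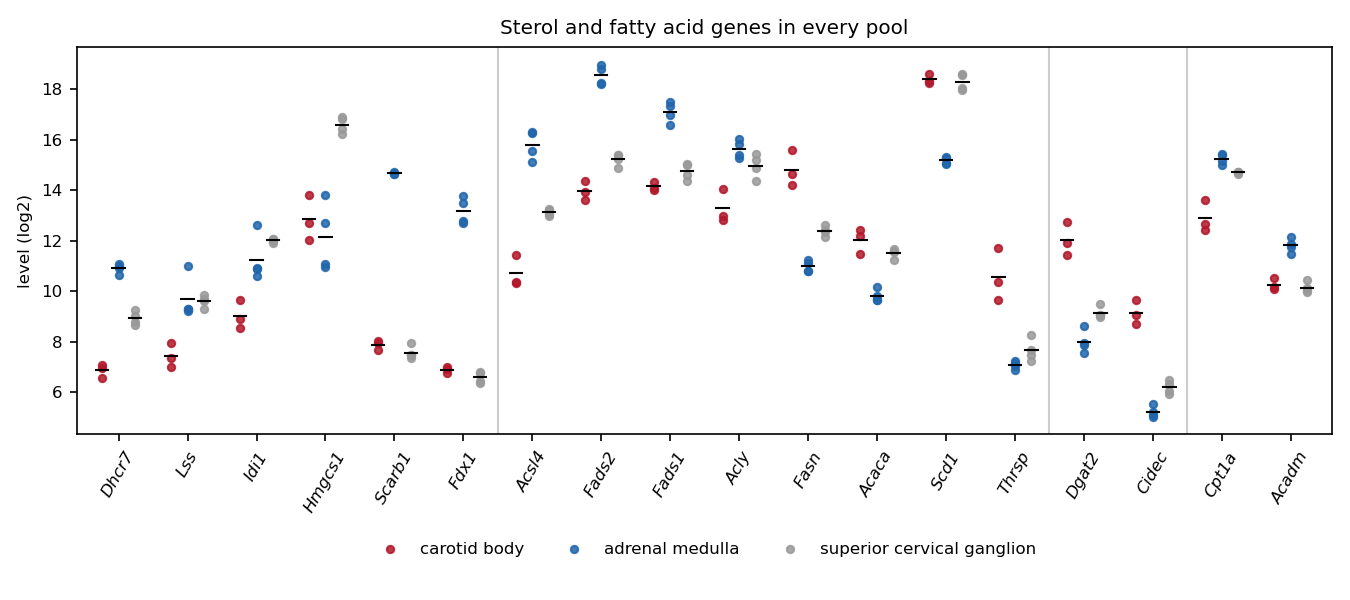
Level (log2, vertical axis) of 18 genes of sterol handling, fatty acid synthesis, triglyceride storage and fatty acid oxidation in every pool, with 1 point per pool, coloured by organ, and a black bar at each organ's mean. Dhcr7, Scarb1, Fdx1, Acsl4, Fads2 and Cpt1a are lower in all carotid body pools than in all adrenal pools, and Fasn, Acaca, Scd1, Thrsp, Dgat2 and Cidec are higher.

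Aldehyde and glutathione enzymes that changed were mostly lower in the carotid body. Of 20 aldehyde dehydrogenases 6 were lower and none higher, and 11 were lower after median centring. Aldh1a3, which makes retinoic acid, read 5.71, 5.81 and 5.96 in the carotid body and 8.50, 9.04, 8.75 and 8.63 in the adrenal medulla, 7.5-fold lower (adjusted p 4.06e-08), and the mitochondrial Aldh2 differed by -2.25. In glutathione metabolism 8 of 38 genes were lower and 1 was higher, which became 10 and 0 after median centring. The transferases Gstm7 (-3.16) and Gstk1 (-3.07) led. One-carbon, serine and pentose phosphate enzymes had 8 of 32 members lower and none higher, led by Aldh1l1 (-2.60), adenosylhomocysteinase Ahcy (-2.20) and transaldolase Taldo1 (-1.74); leaving out carotid body pool 2 or 3 or adrenal pool 2 gave 7 lower and 1 higher.

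Of 28 metallothioneins and zinc transporters 1 was higher and 4 were lower, or 2 higher and 4 lower without carotid body pool 1. The lower ones included Mt1 and Mt2, proteins that bind zinc and copper and respond to glucocorticoids. Mt2 read 11.10, 12.43 and 14.14 in carotid body pools 1 to 3 and 17.36, 16.66, 16.98 and 15.94 in the adrenal pools, a difference of -4.18 (adjusted p 0.000378) that was -3.45 without pool 1 and -4.97 without pool 3. Mt1 differed by -2.49, or by -3.36 with the control features as a covariate. Among zinc transporters the importer Slc39a6 was higher by 1.94 and the exporter Slc30a6 lower by 1.54.

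Lysosomal genes that changed were lower in the carotid body. Of 49 lysosomal hydrolases and membrane proteins, 17 were lower and none higher, with a median difference of -0.59; 1 member was called higher without carotid body pool 1, without pool 2 and without adrenal pool 3. The proteases Ctsf (-2.38), Ctso (-2.25), Tpp1 (-2.18) and Ctsb (-1.98) were lower, and so was the membrane protein Laptm4b (-2.24). Ctsb read 17.03, 16.11 and 16.26 in the carotid body and 18.48, 18.49, 18.44 and 18.37 in the adrenal medulla, with no overlap. The prosaposin gene Psap, at 16.36 ± 0.29 (SD, n = 3) against 17.25 ± 0.05 (SD, n = 4), and Lamp1, at 15.67 ± 0.30 (SD, n = 3) against 15.82 ± 0.14 (SD, n = 4), were not called. Psap was called lower without carotid body pool 1 (-1.05), after median centring (-1.05) and after repeated quantile normalization (-1.01).

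The vacuolar proton pump, which acidifies lysosomes and loads secretory granules, had 7 of 24 subunits lower and none higher. Atp6v1h read 10.12, 9.99 and 10.25 in the carotid body and 12.01, 12.05, 11.62 and 11.95 in the adrenal medulla, 3.45-fold lower (adjusted p 3.21e-06). Atp6v0e2 (-1.87) and Atp6v0a2 (-1.72) were lower as well, and Atp6v0d1 was not called at 13.01 ± 0.24 (SD, n = 3) against 12.90 ± 0.27 (SD, n = 4). Secretory cell markers moved beside these counts. The chromaffin list had 11 of 13 members lower and none higher, or 1 higher without carotid body pool 2, with summed levels of 18.48 to 20.06 in the carotid body and 21.90 to 22.01 in the adrenal medulla, and its part in the pump and lysosome results was not tested.

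Protein folding in the endoplasmic reticulum was lower in 10 of 40 genes and higher in 1, which became 4 and 0 with the control features as a covariate; no member was called higher without carotid body pool 3 or adrenal pool 2 or 4. The stress sensor Ern1 (IRE1-alpha) read 8.57, 8.36 and 8.74 in the carotid body and 12.35, 12.08, 12.14 and 12.41 in the adrenal medulla, 12.9-fold lower (adjusted p 1.47e-08). Creb3l2, a transcription factor of secretory capacity, differed by -2.34 and the degradation adaptor Sel1l by -1.57, while the abundant chaperones Canx (15.77 ± 0.22 (SD, n = 3) against 16.25 ± 0.12 (SD, n = 4)) and Hsp90b1 (15.56 ± 0.05 (SD, n = 3) against 15.98 ± 0.28 (SD, n = 4)) were not called. Heat shock proteins went in 2 directions, with 7 of 47 lower and 3 higher, or 11 lower after median centring and 4 lower with the control features as a covariate. The mitochondrial chaperones Hspd1 (-2.25), Hspa9 (-1.60) and Hspe1 (-1.31) were lower, and the small heat shock proteins Cryab (+2.34), Hspb7 (at least 3.49-fold) and Hspb2 (at least 2.65-fold), known from muscle, were higher. The smooth muscle and pericyte list had 9 of 16 members higher, with summed levels of 19.14 to 19.52 in the carotid body and 14.30 to 14.46 in the adrenal medulla, and its part in the small heat shock proteins was not tested.

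Exocytosis genes were called in both directions. Of 91 synaptic vesicle and exocytosis genes, 9 were higher and 10 lower. Sv2c, a vesicle glycoprotein, read 11.99, 9.88 and 10.81 in the carotid body and 5.41, 5.35, 5.86 and 5.26 in the adrenal medulla, at least 42.3-fold higher, and the complexin Cplx1 read 12.80, 11.07 and 11.83 against 8.73, 8.34, 8.50 and 8.05, 11.3-fold higher. In both the pools kept the order of the sympathetic neuron genes, pool 1 highest and pool 2 lowest, and the ganglion means were 14.62 and 15.20. The sympathetic neuron list had 9 of 19 members higher and 1 lower, a lower call that ended without carotid body pool 2 or 3 and without each adrenal pool in turn, with summed levels of 16.71 to 18.93 in the carotid body, 17.00 to 17.61 in the adrenal medulla and 20.73 to 20.94 in the ganglion. The part of sympathetic nerve RNA in Sv2c and Cplx1 was not tested.

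On the lower side, the granule effector Sytl5 read 6.73, 6.53 and 6.48 in the carotid body against 11.20, 12.21, 11.36 and 11.65 in the adrenal medulla, 32.5-fold lower (adjusted p 3.76e-08). The active zone proteins Rims3 (-2.88), Rims4 (-2.44) and Pclo (-2.76) were lower as well, as was Rab3c (-1.63). The core fusion protein Snap25 was not called, at 16.55 ± 0.78 (SD, n = 3) against 17.10 ± 0.31 (SD, n = 4).

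Growth factor systems were mostly higher in the carotid body where they moved, with a large share among proteins that bind the factors outside the cell. Of 25 binding proteins and inhibitors of the TGF-beta superfamily, 12 were higher and 2 lower. Chrdl1, a BMP antagonist, read 10.95, 11.43 and 11.68 in the carotid body and 6.20, 5.87, 5.84 and 5.90 in the adrenal medulla, 42.2-fold higher (adjusted p 4.13e-09). Asporin Aspn (+4.09), Ltbp4 (+2.93), Sostdc1 (+2.69) and Fstl1 (+2.67) were higher too, and Fstl3 was lower (-1.42). Among 31 ligands 7 were higher and 1 lower, or 4 and 1 after median centring. Bmp5 read 8.35, 8.55 and 8.73 against 5.37, 5.30, 5.51 and 5.32, at least 8.85-fold higher, and Gdf10 (+2.50), Bmp2 (+2.06) and Tgfb2 (+1.70) followed, while Bmp7 was lower (-1.34).

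Insulin-like growth factor binding proteins were higher as well, with 7 of 17 genes of this axis higher and 1 lower, or 6 and 0 with the control features as a covariate. Igfbp4 read 14.28, 13.94 and 14.11 in the carotid body and 8.76, 8.24, 8.65 and 8.65 in the adrenal medulla, 46.3-fold higher (adjusted p 3.18e-09). Igfbp3 read 14.08, 14.52 and 14.44 against 9.15, 8.76, 9.39 and 9.36, 36.3-fold higher, and Igfbp5 was higher by 3.75 and Igfbp6 by 3.30. The ligand Igf1 was higher by 1.71, and the receptor Igf1r was not called at 10.71 ± 0.13 (SD, n = 3) against 11.17 ± 0.15 (SD, n = 4).

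Of 56 Wnt pathway genes 11 were higher and 3 lower. Lef1, a transcription factor that carries the Wnt signal, read 10.07, 10.67 and 10.96 in the carotid body and 5.30, 5.27, 5.39 and 5.43 in the adrenal medulla, at least 36.4-fold higher (adjusted p 6.28e-09). The decoys Sfrp4 (+5.14), Sfrp5 (+3.44) and Sfrp2 (+2.76), the agonist Rspo1 (+3.56) and the ligand Wnt2b (+2.84) were higher. The R-spondin receptor Lgr4 (-2.03) and the co-receptor Lrp5 (-1.82) were lower, and the co-receptor Lrp6 was not called at 11.85 ± 0.09 (SD, n = 3) against 12.04 ± 0.21 (SD, n = 4). Over the 56 genes the differences ran from -7.09 to 5.22, and the genes at both ends are not named here.

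Notch genes were higher in 6 of 29 cases and lower in 1. The ligand Jag1 read 11.64, 11.06 and 10.64 against 7.62, 7.57, 7.84 and 7.90, 10.4-fold higher, and the targets Hey2 (+1.85) and Hey1 (+1.46) and the receptor Notch3 (+1.69) were higher, while the atypical ligand Dlk1 is described with its chromosomal interval. Hedgehog genes were higher in 4 of 15 cases, led by the receptor and target Ptch1 (+2.41) and the effector Gli1 (+2.39), with the Schwann cell ligand Dhh at 7.16, 6.55 and 6.55 in the carotid body and 5.07, 5.20, 4.98 and 4.89 in the adrenal medulla. The binding proteins Boc (-1.33) and Hhip (-1.22) were lower. In the EGF and neuregulin family 4 of 15 genes were higher and none lower, led by the Schwann cell receptor Erbb3 (+2.96).

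Vascular growth factors divided. Pgf, placental growth factor, read 8.15, 8.18 and 7.87 in the carotid body and 5.32, 5.24, 5.17 and 5.14 in the adrenal medulla, at least 6.57-fold higher, and Vegfc was higher by 1.59. Vegfd was lower by 3.99, and the endothelial receptors Kdr (-1.91) and Tek (-1.43) were lower, which made 4 of 27 higher and 3 lower. The blood endothelium list had 7 of 17 markers higher and 4 lower, with summed levels of 14.92 to 15.14 and 15.63 to 16.13, so its members did not move together. Among fibroblast growth factors Fgf7 was higher (at least 3.5-fold) and the receptor Fgfr2 lower by 3.19.

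Several of these secreted proteins are products of connective tissue. The fibroblast list had 11 of 12 members higher in the carotid body, with summed levels of 18.32 to 18.47 in the carotid body and 13.37 to 13.58 in the adrenal medulla. The glia list had 12 of 17 members higher, with summed levels of 17.56 to 18.25 and 13.89 to 14.28. Their part in the growth factor, matrix and guidance results was not tested.

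Many extracellular matrix genes were higher in the carotid body. Of 42 collagen chains 13 were higher and none lower, of 25 elastic fibre and cross-linking genes 10 were higher and 2 lower, and of 38 matrix proteoglycans 14 were higher and 2 lower, or 1 lower without carotid body pool 1. The fibril-associated collagen Col12a1 read 12.74, 11.90 and 11.81 in the carotid body and 7.15, 6.95, 7.36 and 7.46 in the adrenal medulla, 30.2-fold higher (adjusted p 5.2e-08). The vessel collagen Col8a1 (at least 8.92-fold) and Col14a1 (+2.99) were higher, whereas the basement membrane chains Col4a1 (8.90 ± 0.23 (SD, n = 3) against 8.63 ± 0.23 (SD, n = 4)) and Col4a2 (8.98 ± 0.22 (SD, n = 3) against 9.18 ± 0.17 (SD, n = 4)) were not called. Osteomodulin Omd read 13.12, 13.98 and 13.74 against 7.64, 7.76, 7.77 and 8.24, 54.2-fold higher, and the procollagen enhancer Pcolce2 read 10.30, 10.45 and 10.47 against a mean of 4.94, at least 33.3-fold higher.

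Close relatives did not always follow. Pcolce, the paralogue of Pcolce2, was lower by 1.25, and the collagen-modifying lysyl hydroxylase Plod2 was lower by 3.01. Biglycan Bgn was not called at 17.65 ± 0.25 (SD, n = 3) against 17.34 ± 0.07 (SD, n = 4), while the related decorin Dcn was higher by 4.93. Of 50 metalloproteases and inhibitors 11 were higher and 4 lower: Mmp2 was 30.2-fold higher, and Mmp19 was lower by 2.57. Elastin Eln, which lets arteries recoil, read 12.13, 11.78 and 11.38 in the carotid body and 9.42, 9.54, 9.64 and 9.39 in the adrenal medulla, 4.81-fold higher.

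Axon guidance genes were called in both directions. Of 68 semaphorins, plexins, ephrins, slits, netrins and their receptors, 17 were higher and 10 lower. Ntn4 read 10.94, 10.90 and 10.86 in the carotid body and 6.03, 6.09, 5.99 and 6.10 in the adrenal medulla, 28.8-fold higher (adjusted p 1.96e-11), and Ntn1 (+3.33), Sema3c (+3.57) and Sema3b (+2.72) were higher. The netrin receptors Unc5a (-2.25), Neo1 (-1.54) and Dcc (-1.52) and the slit receptors Robo1 (-2.30) and Robo2 (-1.77) were lower. The ephrin receptor Epha3 was higher by 3.30.

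Neurotrophic factors and receptors were higher in 9 of 24 cases and lower in none. Ntrk3, the receptor for neurotrophin 3, read 11.42, 11.35 and 11.28 in the carotid body and 6.60, 6.52, 6.57 and 6.44 in the adrenal medulla, 28.2-fold higher (adjusted p 2.8e-11), and neuritin Nrn1 was higher by 4.45. Ngfr read 14.17, 10.67 and 12.16 against 8.35, 8.80, 8.59 and 8.37, a difference of 3.81 that was 2.89 without carotid body pool 1 and 4.64 without pool 2. Ntrk3 and Nrn1 varied little between the pools, unlike Ngfr. Synaptic adhesion proteins were higher in 17 of 46 cases and lower in 6, among them Chl1 (+4.69) and Cadm4 (+2.60) on the higher side and Alcam (-1.75) on the lower.

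Several receptors for vasoactive peptides were lower in the carotid body. Of 35 peptides, enzymes and receptors of this group 8 were lower and 2 higher. The angiotensin receptor Agtr2 read 5.17, 5.40 and 5.46 in the carotid body and 9.47, 9.36, 9.75 and 9.11 in the adrenal medulla, at least 16.1-fold lower (adjusted p 9.68e-09). Agtr1a (-2.71), the bradykinin receptor Bdkrb2 (-3.02), the endothelin receptor Ednrb (-1.96) and the natriuretic peptide receptor Npr1 (-1.86) were lower as well. The vasoconstrictor endothelin 1, Edn1, was higher, at 7.26, 6.60 and 7.52 against 4.80, 4.80, 5.04 and 4.62, as was the adrenomedullin receptor partner Ramp2 (+1.67). Angiotensin-converting enzyme Ace was not called, at 10.96 ± 0.15 (SD, n = 3) against 11.15 ± 0.32 (SD, n = 4).

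Odorant receptors were almost all at background. Of 1083 olfactory receptor genes 41 were above background in either organ, 2 were called higher (4 without carotid body pool 1) and 1 lower. Olfr558 read 6.42, 6.53 and 6.08 in the carotid body and 4.29, 4.23, 4.64 and 3.84 in the adrenal medulla, at least 2-fold higher (adjusted p 5.98e-06), with a ganglion mean of 4.46. Olfr574 read 4.30, 5.12 and 4.29 against 9.32, 9.24, 9.52 and 8.47, at least 13.6-fold lower (adjusted p 1.13e-06). Both were near background in 1 organ in every pool and above it in every pool of the other. Olfr1055 was higher by 1.06 and lost its call without carotid body pool 2 (1.02), without adrenal pool 2 (0.88), after median centring (0.91), with replicates as a block (1.01) and with the control features as a covariate (0.48).

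Of 111 orphan and other numbered G-protein-coupled receptors 10 were higher and 7 lower, a split that became 4 and 11 after median centring. Gpr139 read 6.93, 6.45 and 7.03 in the carotid body and 4.04, 4.20, 4.06 and 4.15 in the adrenal medulla, at least 2.74-fold higher, and the glial receptor Gpr37l1 was higher by 2.84. Gpr22 was lower by 2.39. Adhesion receptors had 6 of 27 members higher and 5 lower, with the Schwann cell receptor Adgrg6 higher by 2.80 and the endothelial Adgrl4 lower by 1.63.

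The sodium-potassium pump and its regulators had 5 of 15 members higher and none lower, or 1 lower without carotid body pool 1. The FXYD proteins, small regulators of the pump, led: Fxyd7 read 11.51, 11.38 and 11.85 in the carotid body and 7.37, 7.32, 7.16 and 7.20 in the adrenal medulla, 20-fold higher (adjusted p 3.2e-09). Fxyd2 was higher by 3.92 and Fxyd1 by 3.84, and the pump subunit Atp1b1 was not called at 15.30 ± 1.02 (SD, n = 3) against 15.18 ± 0.28 (SD, n = 4). In the ganglion Fxyd7 had a mean of 14.72. The water channel Aqp1 read 12.31, 11.28 and 11.81 against 6.42, 6.64, 6.74 and 6.78, 35.7-fold higher, and the glycerol channel Aqp7 was at least 3.72-fold higher. The gap junction protein Gjc3 of myelinating glia was higher by 3.78.

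A list of amino acid transporters, which also held the serotonin transporter Slc6a4, was lower in 12 of 62 cases and higher in 6. Slc6a4, whose substrate is not an amino acid, read 9.53, 9.53 and 9.53 in the carotid body and 14.28, 14.75, 14.89 and 14.18 in the adrenal medulla, 31.9-fold lower (adjusted p 4.11e-07). Slc38a11 was lower by 4.79, Slc38a4 by 4.21, the taurine transporter Slc6a6 by 2.42 and the large neutral amino acid carrier Slc7a5 by 3.17. Slc7a8 was lower by 3.93, or by 4.56 without carotid body pool 1. The glutamine transporter Slc1a5 was higher by 3.65 (2.85 with the control features as a covariate). Cytosolic aminoacyl-tRNA synthetases, which consume amino acids, had 4 of 19 members lower and none higher, or 2 and 1 with the control features as a covariate. The glutamate and proline enzyme Eprs was lower by 2.05.

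Sox genes were higher in 4 of 19 cases, led by the glial regulator Sox10 (+2.47), and forkhead genes in 5 of 39, or 3 after median centring, led by Foxd3 (+1.73). Sox10 and Foxd3 also stand in the glia list, whose part in these differences was not tested. The EBF genes were higher: Ebf2 read 8.59, 8.69 and 8.69 against 5.58, 5.69, 5.46 and 5.45, 8.66-fold higher, Ebf1 was higher by 2.64 and Ebf3 by 2.16. The aryl hydrocarbon receptor Ahr was higher by 3.24. Among 43 nuclear receptors 5 were higher and 5 lower, with Rxrg (at least 6.19-fold) and Nr4a2 (+1.44) higher and the steroidogenic regulator Nr5a1 (at least 14.5-fold) and the vitamin D receptor Vdr (-3.58) lower. The fast-induced factors Klf4 (+2.00) and Klf6 (+1.56) were higher, and Gata2 (-2.52) and Gata6 (-1.63) were lower. Fast-induced genes as a list went in both directions, with 4 of 36 immediate early genes higher and 5 lower. The lower count was 3 without carotid body pool 2 or 3, without adrenal pool 1 and with the control features as a covariate.

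Immune genes gave no single direction. Complement had 5 of 41 genes higher and 9 lower. C4b read 11.96, 12.15 and 12.03 in the carotid body and 7.40, 7.34, 7.25 and 7.21 in the adrenal medulla, 26.9-fold higher (adjusted p 9.42e-11), and the inhibitor Serping1 was higher by 3.49, while the terminal component C7 (-3.39) and the decay regulator Cd55 (-2.92) were lower. The chemokine Cxcl12 was higher by 3.27 and Cxcl14 lower by 4.92, among 5 of 55 chemokine genes higher and 4 lower. The largest difference in this list, 6.69, belonged to a gene that is not named here. Interferon-induced genes were lower in 7 of 58 cases and higher in 2, or 5 and 1 without carotid body pool 2 and 7 and 1 without pool 3; Rsad2 differed by -2.56. The macrophage list had 3 of 16 members higher and 2 lower, or 1 lower without carotid body pool 1 or adrenal pool 1 or 3, with summed levels of 14.10 to 14.34 and 13.92 to 14.22, and no lymphocyte marker of 17 was called.

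Few housekeeping genes were called. Of 74 mitochondrial ribosomal proteins 1 was lower and none higher, of 41 cytosolic ribosomal proteins 1 was lower, of 44 nuclear-encoded subunits of respiratory complexes II to V 1 was lower, of 38 proteasome subunits 2 were lower, and of 35 cell division genes 1 was lower. Their median differences lay between -0.22 for the proteasome and 0.12 for the cytosolic ribosome. After median centring 4 mitochondrial ribosomal and 4 respiratory genes were lower, and without carotid body pool 1 there were 3 respiratory, 2 cytosolic ribosomal and 1 mitochondrial ribosomal genes higher and 2 cytosolic ribosomal genes lower. Without carotid body pool 3, 2 mitochondrial ribosomal and 3 respiratory genes were lower, and without pool 2, 1 proteasome subunit was.

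Small nuclear and nucleolar RNAs made up many of the genes called higher. Of 1931 small nuclear, small nucleolar and ribosomal RNA genes, 628 were called higher and 16 lower. Those called higher included 383 of 914 small nuclear and 55 of 62 ribosomal RNA genes. The median of the ribosomal RNA genes was 9.93, 12.33 and 11.74 in carotid body pools 1 to 3. It was 8.44 to 9.05 in the adrenal pools and 10.64 to 11.67 in the ganglion pools, and the cause was not tested. Some of the 1931 genes share 1 profile over all arrays and cannot be read separately, and the 914 small nuclear RNA genes gave 841 distinct profiles. Small nucleolar RNAs (snoRNAs), which guide chemical changes on other RNAs, were called higher in 190 of 955 cases (19.9%) and lower in 16 (1.68%), and 167 of the 190 lay in 1 imprinted interval, chosen here after its values were seen.

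That interval runs from Ube3a to Snurf on chromosome 7 and matches the human Prader-Willi region, where tandem snoRNA copies are cut from 1 long transcript of the paternal chromosome. It held 170 snoRNA genes, of which 167 were higher and none lower, with 78 distinct profiles because many copies share probes. Their median level was 9.26, 9.26 and 9.99 in the carotid body pools and 6.21, 5.60, 5.76 and 4.74 in the adrenal pools, and 12.54 to 13.72 over the ganglion pools. The median difference was 5.02, and every carotid body median lay above every adrenal median and below every ganglion median. Outside the interval, 23 of 785 snoRNAs were higher. Snord64, at the Snurf end, was not called (7.01 ± 0.46 (SD, n = 3) against 7.06 ± 0.21 (SD, n = 4)), nor was Ube3a, the protein-coding gene at the other end (9.38 ± 0.24 (SD, n = 3) against 9.91 ± 0.18 (SD, n = 4)).

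The imprinted interval from Dlk1 to Dio3 on chromosome 12, also chosen after its values were seen, went the other way. Of its 57 genes 19 were lower and none higher, among them 12 of 42 microRNAs and 6 of 11 snoRNAs, and 47 of the 57 differences were below 0. Without carotid body pool 2 the count was 13. Dlk1, a membrane protein of the Notch ligand family, read 7.40, 8.11 and 8.11 in the carotid body and 14.52, 14.48, 14.52 and 14.51 in the adrenal medulla, 99.2-fold lower (adjusted p 7.8e-10). Dio3 was at background in both organs. The microRNAs were dim, with differences no larger than 1.79.

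Mature sequences of 3 of the called microRNAs that were above background in the adrenal pools are given because none shares its seed (capitals) with another of the 3.
miR-329-3p: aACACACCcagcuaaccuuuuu
miR-495-3p: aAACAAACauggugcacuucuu
miR-376b-3p: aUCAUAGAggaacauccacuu
Mir329, at chr12:109713541-109713562 on the plus strand, read 5.59, 5.14 and 4.77 in the carotid body and 6.77, 6.28, 7.41 and 7.10 in the adrenal medulla, at least 2.72-fold lower (adjusted p 0.00055). Mir495, at chr12:109718795-109718816 on the plus strand, read 5.51, 5.25 and 5.98 against 6.94, 6.38, 7.45 and 6.96, at least 2.48-fold lower (adjusted p 0.00196). Mir376b, at chr12:109723508-109723528 on the plus strand, read 5.53, 5.32 and 5.27 against 6.52, 6.34, 7.31 and 6.50, at least 2.36-fold lower (adjusted p 0.000797). For all 3, no carotid body pool reached an adrenal pool.

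**Figure D5:**
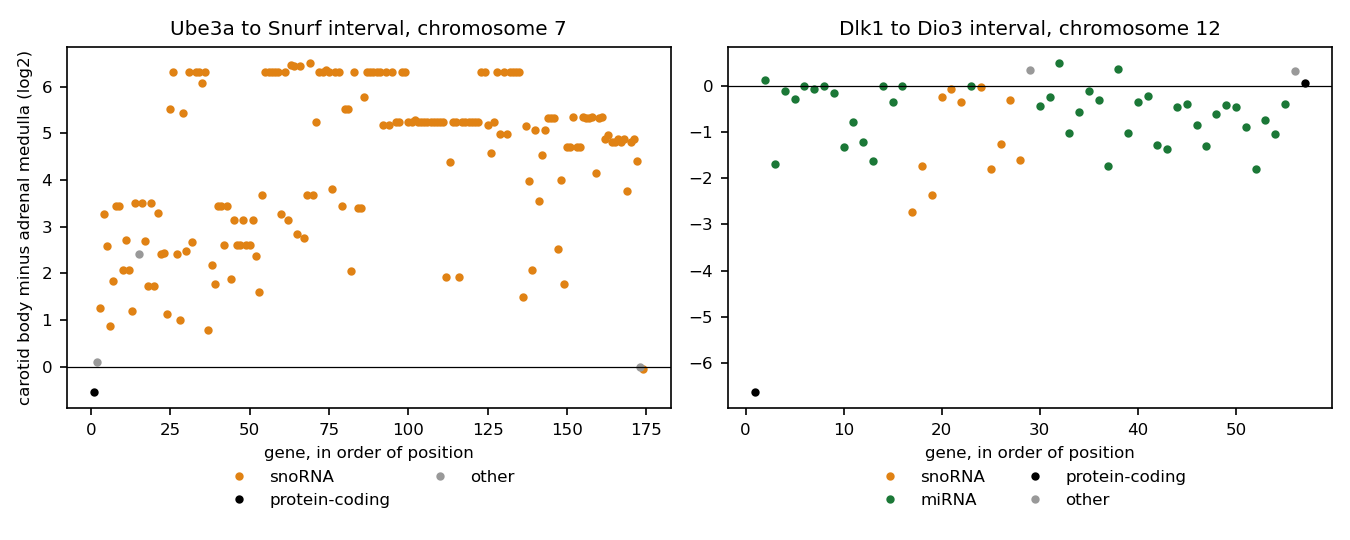
Difference between carotid body and adrenal medulla (log2, vertical axis) for each gene of 2 imprinted intervals in order of position (horizontal axis), with 1 point per gene coloured by gene type. Nearly all snoRNAs of the chromosome 7 interval lie above 0.7, up to 6.50, while most genes of the chromosome 12 interval lie below 0, with Dlk1 lowest at -6.63.

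Imprinted genes as a list gave 4 of 41 higher and 7 lower, or 2 and 8 after median centring. Gab1 was higher by 2.76 and Impact (-1.84) and Rasgrf1 (at least 2.9-fold) lower, and Ndn (13.36 ± 0.27 (SD, n = 3) against 13.83 ± 0.24 (SD, n = 4)) and Peg3 (12.11 ± 0.38 (SD, n = 3) against 12.88 ± 0.22 (SD, n = 4)) were not called. Igf2 was higher by 1.03 and lost its call after median centring (0.88) and without adrenal pools 2 or 4.

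Gene families found by a shared symbol stem, with at least 8 protein-coding members, were ranked by their share called, as a description. On the higher side the stems with the largest shares were Fabp (4 of 9), Klf (7 of 17), Kcna (3 of 8), Tubb (3 of 8), Bmp (4 of 12) and Pcdh (4 of 12). Bmp also had 1 member lower, and Pcdh had 3 lower, so the Pcdh genes went in both directions. On the lower side they were Hoxb (5 of 9), Alg (4 of 11), Hspa (4 of 12), Man (3 of 9) and Abhd (6 of 19). Alg genes build the sugar chain that is added to secreted proteins, and the Man stem holds mannosidases that trim it.

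Of 24 genes discussed for oxygen sensing and for signalling in these organs, 19 could be measured, and 4 were higher, 2 lower and 13 not called. Olfr558 is given above. Abcc9, a subunit of ATP-sensitive potassium channels, was higher by 1.09. It lost its call without carotid body pool 1 (0.87), after median centring (0.94) and with array weights (0.93). Rgs5, a brake on G-protein signals, was higher by 5.47 and the lactate carrier Slc16a1 by 1.80. Rgs5 and Abcc9 also stand in the smooth muscle and pericyte list, whose summed levels are given above. The part of those cells in both differences was not tested. Tyrosine hydroxylase Th, whose adrenal level was near the array maximum, was at least 3.66-fold lower, and Cth, which makes hydrogen sulphide, was lower by 1.70. Olfr78, Adora2a and Adora2b were not analysed here.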

How the data were processed

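RNA from 11 pools was hybridised to Affymetrix mouse transcriptome arrays. The authors deposited log2 values per transcript cluster, and the submitters' processing notes name RMA and the Expression Console software; versions and the genome build of the array are not given in the sources used here. Of 65956 clusters, 30607 carried 1 symbol, 2143 several and 33206 none, and 819 symbols were updated through the RefSeq table. Each gene was taken from its cluster with the highest mean over the 11 arrays. Carotid body minus adrenal medulla was fitted with limma 3.58.1 in R 4.3.3 over all 11 arrays with tissue as the only factor, and Benjamini-Hochberg adjusted p-values covered all 30145 genes; 11585 genes had an unadjusted p under 0.05. The fit was tested on simulated data. Differences to the ganglion share arrays with this contrast and were not tested. A fold is "at least" where any pool of the dimmer tissue lay under its bound (5.35 in adrenal medulla, 5.38 in carotid body) or the brighter near the array maximum.

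The members and lists were chosen with earlier results of these data known. Genes named were drawn from the largest called protein-coding genes in each direction and up to 6 called members of a list in each direction. Up to 3 uncalled members with the highest mean and genes of interest to this comparison were added. Some of the largest members of the lists are not named. Hoxa5, Hoxb7, Hoxd8, the microRNAs, Snord64, Ube3a, Iyd, Slc26a7, Myh4 and Tnnt3 were named after their values were seen. Alternatives changed 1 choice at a time: pools left out, median centring, repeated quantile normalization, a filter on dim genes, array weights, a replicate block, the first principal component of the control features as a covariate, only the 7 arrays of both tissues, the mean over clusters, trend and robust moderation, protein-coding genes only, all clusters, identical profiles once, and other limits. Promoter and microRNA sequences are RefSeq's (GRCm38.p6).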

Additional observations from a re-analysis of the deposited data

Results flagged for a closer look

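In 17 of the 261 named genes, 1 of the 4 adrenal medulla pools was separated from the other 3. Its gap to the nearest neighbour, as a share of the group's range, exceeded Dixon's 95% limit for 4 samples. The gap itself can be small, as for Notch3 at 6.88 against 6.89. Chance alone gives such a gap in about 1 of 20 groups, a share close to 17 of 261. Carotid body groups of 3 were not tested. The pools above the others come first. Idi1 read 12.63 in adrenal pool 2 against a median of 10.86 in the other 3, and Lss read 10.99 in adrenal pool 2 against a median of 9.29 in the other 3. Gata6 read 10.94 in adrenal pool 4 against a median of 10.09 in the other 3, and Tubb3 read 8.11 in adrenal pool 3 against a median of 7.61 in the other 3. Chrdl1 read 6.20 in adrenal pool 1 against a median of 5.87 in the other 3, and Tek read 12.09 in adrenal pool 4 against a median of 11.83 in the other 3. Canx read 16.44 in adrenal pool 2 against a median of 16.19 in the other 3, and Epha3 read 7.19 in adrenal pool 1 against a median of 7.08 in the other 3. The pools below the others follow. Snap25 read 16.64 in adrenal pool 4 against a median of 17.26 in the other 3, and Plin1 read 6.16 in adrenal pool 1 against a median of 6.73 in the other 3. Sfrp5 read 5.87 in adrenal pool 1 against a median of 6.25 in the other 3, and Aspn read 7.96 in adrenal pool 3 against a median of 8.25 in the other 3. Fitm2 read 9.07 in adrenal pool 3 against a median of 9.32 in the other 3, and Cxcl12 read 7.05 in adrenal pool 4 against a median of 7.28 in the other 3. Myh4 read 4.58 in adrenal pool 3 against a median of 4.77 in the other 3, and Prrx1 read 6.13 in adrenal pool 1 against a median of 6.29 in the other 3. Notch3 read 6.88 in adrenal pool 2 against a median of 6.89 in the other 3. Lss and Idi1 were both highest in adrenal pool 2, and no carotid body pool reached the other adrenal pools for either gene.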

How the results depend on the processing

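Of the 261 genes named, 249 kept their side of the threshold under each alternative that kept the same limits and held the gene, and no called gene changed direction; the other p and fold limits, all clusters and identical profiles once were computed for the totals only. Leaving out each pool in turn gave 3128 to 3740 called genes against 3320 with all pools, with 1748 to 2057 higher and 1380 to 1683 lower. The 3 settings that redefine what is tested or called moved the totals most: 8833 genes passed the adjusted p alone (4139 higher and 4694 lower), 1149 passed with a 4-fold limit (806 and 343), and 5157 of 65956 transcript clusters were called when each was tested separately (3236 and 1921). With protein-coding genes only, 1009 were higher and 1220 lower. Median centring changed the share of calls that were higher from 55.1% to 44.5%, with 1577 higher and 1966 lower. Genes with the same values on all arrays, counted once, gave 1627 higher and 1490 lower. Of the 817 calls among listed genes, 94 were lost with the first principal component of the control features as a covariate, 63 after median centring, 45 without carotid body pool 1 and 39 without pool 2; the cause was not tested. The covariate also moved differences that kept their call by over 1.5-fold: Sv2c to 6.05, Ngfr to 4.63, Slc6a2 to 4.20, Tubb3 to 6.13, Prph to 5.78, Mt2 to -5.04 and Slc7a8 to -3.16.

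The labels do not say whether same-numbered pools share mice. The deviations of same-numbered carotid body and adrenal pools correlated at -0.094, -0.075 and -0.014, and those of differently numbered pools at -0.228 to 0.334. Pools of different organs need not vary together, so these values cannot decide whether the numbers pair the pools. With the replicate number as a block, 3302 genes were called, 1795 higher and 1507 lower, and 17 of the 817 calls were lost. With 3 and 4 pools the number of arrays limits the precision. Transcripts near the background bound have only a bound on their fold.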
